A study of Mus musculus with 12 samples.

Results

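The genes described here are the canonical histone genes of the mouse, taken as every gene whose name starts with Hist1h, Hist2h, Hist3h or Hist4h in the deposited tables. This name rule, which uses no measured value, found 70 genes among 54532. They were followed in total RNA of the hippocampus from mice 3 months old, in 12 libraries that form 4 groups of 3: Atrx-cKO females, control females, Atrx-cKO males and control males. Atrx encodes a chromatin remodeller, and cKO stands for its conditional knockout, which the series title places in neurons. The sources used here do not give the Cre driver, the deleted exons, the strain or the control alleles. The series design mentions pairs of cKO and control mice and 12 samples, which reads as 1 mouse a library but is not stated for each, so p-values measure the spread between libraries. A miRVANA kit served to isolate the RNA, and the ScriptSeq Complete Gold kit to remove ribosomal RNA; no selection for poly(A) tails is named.

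Canonical histones are the proteins that package newly made DNA. H2A, H2B, H3 and H4 form the core of the nucleosome, and H1 binds the linker DNA between cores. Their genes are mostly short, lack introns and stand in clusters, and their messages end in a conserved stem-loop in place of a poly(A) tail. The stem-loop binding protein SLBP and the U7 small nuclear RNA direct the cleavage that forms this end, and most of these messages are made during S phase. Most neurons of the adult hippocampus have left the cell cycle, and such cells draw much of their new histone from replacement variants such as H3.3, whose genes give polyadenylated messages. Messages without a poly(A) tail are lost in libraries made by poly(A) selection and are kept when only ribosomal RNA is removed.

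Of the 70 genes, 56 had Hist1 names, on chromosome 13, with Hist1h2al away from the rest, 10 in Hist2 on chromosome 3, 3 in Hist3 on chromosome 11 and 1, Hist4h4, on chromosome 6. By protein, 6 were H1, 20 H2A, 19 H2B, 12 H3 and 13 H4 genes. The annotation calls 67 of them protein coding and 3, Hist1h2aj, Hist1h2al and Hist3h2bb-ps, pseudogenes. A single annotated transcript stood for 65 genes, and 5 had several. A total of 14 pairs lay head to head, with divergent transcription start sites at most 500 bases apart. All 14 of them joined an H2A gene to an H2B gene, at 173 to 306 bases.

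The 3′ stem-loop was read from the GENCODE M21 transcripts of the 70 genes as 6 paired bases, a loop of 4 and 6 paired bases, with the letters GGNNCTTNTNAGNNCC on the sense strand and both arms complementary. It was found in 46 of the 70 genes. It occurred in 55 of 21901 protein-coding genes (0.251%), and in 9 of the 21834 that are not in the clusters (0.0412%). Several transcript models without a match end at or soon after the coding sequence, and no match says only that these letters are not in the annotated transcript. The sequences below are shown because the stem differs between H4 and the other classes. The capitals mark the stem-loop, and 5 bases are given on either side.

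Hist1h4d: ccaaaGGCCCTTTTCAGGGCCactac
Hist1h4b: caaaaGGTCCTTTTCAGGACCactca
Hist1h4i: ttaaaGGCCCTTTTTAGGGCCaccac
Hist1h4a: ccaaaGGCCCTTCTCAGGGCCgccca
Hist1h1c: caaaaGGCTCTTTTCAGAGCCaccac
Hist3h2a: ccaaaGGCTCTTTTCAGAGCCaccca
Hist3h2ba: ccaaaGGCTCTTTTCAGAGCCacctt
Hist1h2bb: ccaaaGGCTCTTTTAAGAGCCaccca
Hist2h2ac: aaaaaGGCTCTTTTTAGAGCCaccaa
Hist1h3g: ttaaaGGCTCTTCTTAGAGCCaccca

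The form of Hist1h1c, Hist3h2a and Hist3h2ba was shared by 26 genes, 3 of H1, 10 of H2A, 8 of H2B and 5 of H3. The form of Hist1h2bb was found in 6 genes, and those of Hist2h2ac and Hist1h3g in 1 each. All 12 H4 genes with a match had another stem: 7 had the form of Hist1h4d, 2 that of Hist1h4b, 2 that of Hist1h4i and 1 that of Hist1h4a. No H1, H2A, H2B or H3 gene carried any of these 4 forms.

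RefSeq promoters on GRCm38.p6, from 250 bases before to 50 after the start, were matched to 61 of the 70 genes and searched on both strands. The TATA box TATAAA was found in 35 of the 61 (57.4%), against 14.2% of all 27025 promoters. The letters CCAAT, the site of NF-Y, were found in 52 (85.2%), against 37.9% of all promoters. CCAAT was present in all 6 H1, 17 H2A, 16 H2B and 10 H3 promoters and in 3 of 12 H4 promoters. The octamer core TTTGCAT, the site of Oct1, was found in 14 promoters (23.0%), against 4.59% of all. It stood in 7 of 17 H2A, 6 of 16 H2B and 1 of 12 H4 promoters. These matches describe the letters only. The windows of head-to-head pairs can overlap, so a site can be counted for both partners. The octamer of Hist1h2aa and Hist1h2ba is such a shared site.

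The promoters of 3 genes to which the results return are printed with matches to any of these motifs, on either strand, in capitals. They are the most abundant gene, the gene that passed the test in cKO females, and 1 gene that differed between control males and control females and shares its window with the start of the divergent Hist2h2be.

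Hist1h4d, chr13:23581318-23581617, plus strand: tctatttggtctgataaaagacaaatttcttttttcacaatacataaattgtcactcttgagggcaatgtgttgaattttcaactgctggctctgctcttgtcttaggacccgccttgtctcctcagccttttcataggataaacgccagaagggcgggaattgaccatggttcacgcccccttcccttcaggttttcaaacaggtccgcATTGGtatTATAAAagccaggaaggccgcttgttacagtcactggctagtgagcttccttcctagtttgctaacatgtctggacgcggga
Hist3h2ba, chr11:58948661-58948960, plus strand: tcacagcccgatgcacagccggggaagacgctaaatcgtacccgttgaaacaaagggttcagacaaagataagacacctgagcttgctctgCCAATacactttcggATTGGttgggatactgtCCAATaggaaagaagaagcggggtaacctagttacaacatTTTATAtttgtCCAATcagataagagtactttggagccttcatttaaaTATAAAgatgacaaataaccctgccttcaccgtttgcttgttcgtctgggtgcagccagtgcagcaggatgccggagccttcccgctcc
Hist2h2ac, chr3:96220831-96221130, minus strand: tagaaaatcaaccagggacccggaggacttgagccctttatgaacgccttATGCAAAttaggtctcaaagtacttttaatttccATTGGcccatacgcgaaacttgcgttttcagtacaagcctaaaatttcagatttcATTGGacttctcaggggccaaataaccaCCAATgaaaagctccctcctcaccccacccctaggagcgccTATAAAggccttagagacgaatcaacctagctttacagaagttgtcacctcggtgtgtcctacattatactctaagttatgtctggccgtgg

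Values are FPKM, fragments scaled by transcript length and by the mapped fragments of the library, as deposited by transcript and summed per gene. Mapped depth was 1.16 to 4.26 Gb in cKO females, 3.60 to 7.90 Gb in control females, 3.66 to 8.64 Gb in cKO males and 7.12 to 8.19 Gb in control males. The libraries differed in background, taken as the median FPKM per exon base of 1459 olfactory and vomeronasal receptor genes, which hippocampus is not known to use. It was 0.305, 1.97 and 2.25 in the cKO females and 0.180, 0.0863 and 0.602 in the control females. It was 0.0205, 0.286 and 0.0178 in the cKO males and 0.0276, 0.0128 and 0.00664 in the control males. The female groups overlapped in background, cKO female 1 lying below control female 3, and cKO females 2 and 3 stand apart from the other 10 libraries. Atrx averaged 35.1 ± 3.71 FPKM in cKO females and 59.3 ± 4.03 in control females, and 34.3 ± 2.09 in cKO males and 43.0 ± 3.44 in control males (SD, n = 3 each), lower in the cKO group as labelled. The neuronal markers Snap25, Slc17a7 and Rbfox3 lay above the background in all 12 libraries. Ttr, the leading message of choroid plexus, ran from 20.9 to 25.9 FPKM in cKO females and from 9.09 to 5701 in control females, and from 40.9 to 2499 in cKO males and from 1309 to 4002 in control males.

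The histone cluster genes were readily seen in these libraries, led by the H4 gene Hist1h4d (chr13:23581598-23582735). It had 132, 125 and 115 FPKM in the cKO females and 103, 126 and 163 in the control females. The cKO males had 165, 144 and 132 and the control males 127, 141 and 151. The cKO and control groups overlapped within either sex, as did the sexes within the controls. As deposited, the cKO males all lay above the cKO females, by a narrow gap. The gene gave between 21.3% and 34.4% of the summed FPKM of all 70 genes in each library. It overlaps no other annotated gene, and 89.8% of its windows of 50 bases occur in no other transcript. The annotated transcript is 1138 bases long and runs 770 bases past the stem-loop shown above.

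**Figure D1:**
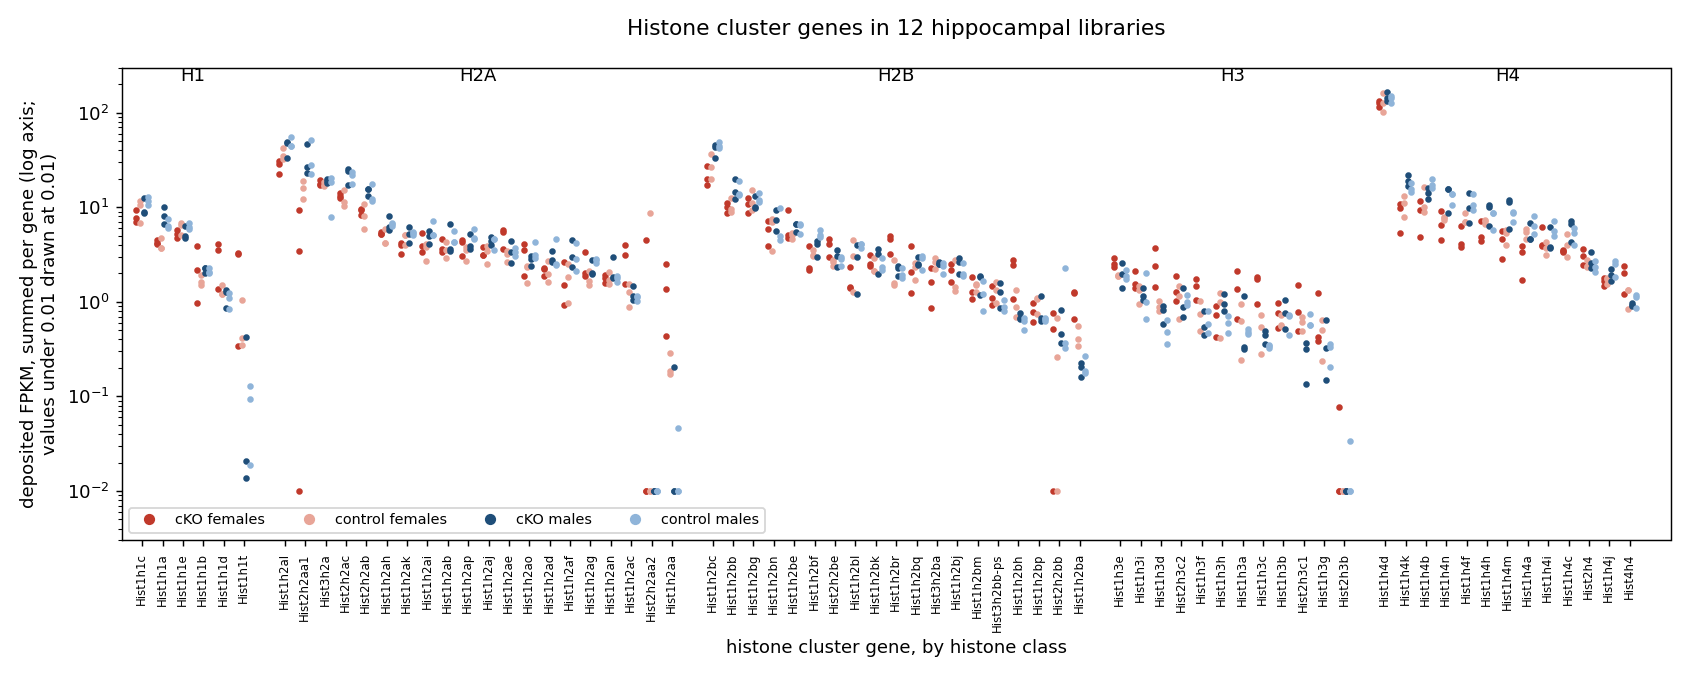
Deposited FPKM of each of the 70 histone cluster genes in each library (points; log axis, values under 0.01 drawn at 0.01), ordered by class and then by mean level, with 3 libraries for each of 4 groups. Hist1h4d lies above 100 FPKM in all 12 libraries, and the H3 genes lie lowest, with no H3 gene at a mean above 2.10.

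Hist1h2al and Hist2h2aa1, a pair of abundant H2A genes, share sequence with other copies, so that the counting may mix them. Hist1h2al, annotated as a processed pseudogene far from the main cluster at chr13:51202727-51203065, had 30.9, 28.7 and 22.5 FPKM in the cKO females and 42.6, 34.6 and 32.6 in the control females. It had 49.2, 47.9 and 33.3 in the cKO males and 55.0, 44.98 and 44.5 in the control males. Only 32.4% of its windows were its own. Hist2h2aa1 had no window of its own, since Hist2h2aa2 and predicted genes at the locus carry the same sequence. Hist2h2aa1 had 3.48, 0 and 9.26 FPKM in the cKO females and 16.04, 19.2 and 12.1 in the control females. The cKO males had 26.8, 46.7 and 23.2 and the control males 51.0, 22.5 and 27.7. Hist2h2aa2 was listed at 0 in 10 of the 12 libraries. Values of single copies among such genes are therefore uncertain.

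The H2B gene Hist1h2bc (chr13:23684199-23692908) had 27.4, 17.2 and 20.1 FPKM in the cKO females and 26.9, 36.5 and 19.8 in the control females. It had 45.5, 32.9 and 43.1 in the cKO males and 44.1, 42.5 and 48.8 in the control males. All but 1 of the males lay above all 6 females. It forms a head-to-head pair with the H2A gene Hist1h2ac, which averaged 1.62 FPKM over the 12 libraries where Hist1h2bc averaged 33.7. The divergent partners thus differed by 20.9 times, the widest gap of the 14 pairs. The narrowest, 1.07 times, was that of Hist1h2ag and Hist1h2bj, and the median was 1.92 times. The H2A partner was the higher in 9 pairs and the H2B partner in 5.

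Other abundant members included H4 and H2B genes. Hist1h4k had 10.9, 5.29 and 9.93 FPKM in the cKO females and 13.3, 11.1 and 7.93 in the control females. The cKO males had 22.1, 16.9 and 19.0 and the control males 17.9, 14.5 and 15.4, with all 6 males above all 6 females. Hist1h4b had 11.6, 9.47 and 4.81 in the cKO females and between 8.93 and 16.4 in the control females. The cKO males had 12.2, 14.2 and 15.99 and the control males 20.0, 17.0 and 16.2. Hist1h2bg had 8.75, 12.6 and 10.8 in the cKO females and 9.39, 11.2 and 15.1 in the control females. The cKO males had 13.2, 10.1 and 9.93 and the control males 11.8, 11.4 and 14.0. The sexes overlapped for the last 2 genes. Over the 22 members with a mean above 5 FPKM, the median coefficient of variation between libraries was 21.1% in cKO females, 20.0% in control females, 20.3% in cKO males and 12.6% in control males.

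Hist3h2a, the H2A gene of the Hist3 cluster, had 17.3, 19.5 and 17.5 FPKM in the cKO females and 17.3, 16.7 and 18.4 in the control females. The cKO males had 19.9, 18.9 and 18.1 and the control males 20.3, 7.92 and 18.5. Control male 2 alone lay apart. The gene overlaps Trim17, and since the sources used here do not state the use of strand, reads of the pair could not be told apart. Trim17 averaged 1.57 FPKM in cKO females, 1.53 in control females, 0.824 in cKO males and 2.75 in control males. By library, the control males had 1.23, 6.15 and 0.881. Control male 2, where Hist3h2a was low, was thus the library where Trim17 was high.

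By class, H4 gave 39.4% to 48.8% of the summed FPKM in each library, H2A 26.1% to 36.2%, H2B 17.4% to 21.9%, H1 4.16% to 6.73% and H3 1.24% to 4.47%. The H3 genes were the lowest class, with a median over genes of 0.779 FPKM against 6.81 for H4, both per length. Hist1h3e was the highest H3 gene at a mean of 2.10 FPKM. Hist2h3b was at 0.077 FPKM or less in every library, and none of its windows was its own. Among H1 genes, Hist1h1c led with 9.31, 7.04 and 7.62 FPKM in cKO females and 10.6, 11.7 and 6.76 in control females, and 12.5, 8.65 and 8.93 in cKO males and 12.99, 10.5 and 11.7 in control males. The testis variant Hist1h1t was at 0.344, 3.27 and 3.24 FPKM in the cKO females and at 0.0137 to 1.05 in the other 9 libraries, beside backgrounds of 0.305, 1.97 and 2.25 in the cKO females and 0.00664 to 0.602 in the other 9. Over all classes, 12 genes averaged above 10 FPKM, 13 averaged under 1 and the median was 2.64.

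A gene was called above background in a library where its value per exon base passed the 95th percentile of the receptor genes there. This held for 57, 21 and 23 of the 70 genes in the cKO females and 64, 67 and 53 in the control females. It held for 66, 57 and 66 in the cKO males and 66, 66 and 67 in the control males. A total of 18 genes passed in all 12 libraries, 57 in all 6 males and 1, Hist2h3b, in none. The low counts of cKO females 2 and 3 stood beside the highest receptor percentiles, 4.33 and 4.15 FPKM. Read sharing limits single genes further: 13 genes had at least 80% of windows of their own, 13 had under 10% and 5 had none, with a median of 45.5%. A further limit is overlap, since 11 of the 70 genes overlap another annotated gene. In bulk tissue, fewer cells of a type and less RNA per cell cannot be told apart.

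The summed FPKM of the 70 genes was 420, 421 and 426 in the cKO females and 433, 438 and 474 in the control females. It was 626, 532 and 549 in the cKO males and 597, 530 and 581 in the control males. All 6 males thus lay above all 6 females, and the 3 cKO females lay below the 3 control females by a gap smaller than the range of the controls. Group means were 422 ± 3.62 in cKO females, 449 ± 22.4 in control females, 569 ± 50.3 in cKO males and 569 ± 35.1 in control males (SD, n = 3 each). No test was made on these sums. After subtraction of the background and scaling, the means were 414 ± 48.8 in cKO females and 384 ± 28.1 in control females, so the order of the female groups turned round. In males they were 512 ± 38.2 in the cKO and 513 ± 12.3 in the controls.

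**Figure D2:**
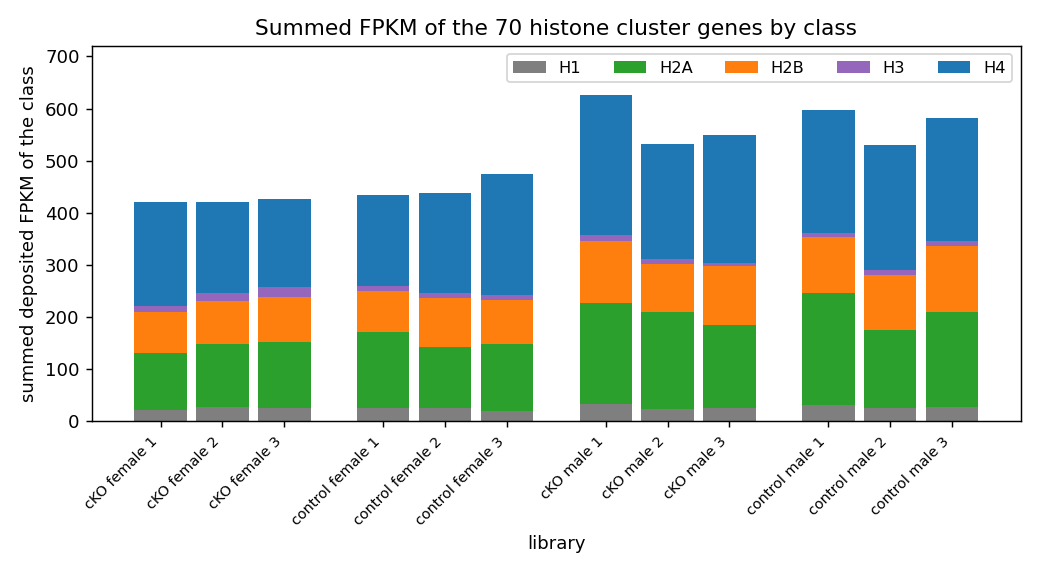
Summed deposited FPKM of the histone cluster genes in each of the 12 libraries, stacked by class (H1, H2A, H2B, H3, H4). The 6 male libraries sum to 530 to 626 FPKM and the 6 female libraries to 420 to 474.

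The effect of Atrx loss was tested within either sex, as the mean of the sexes and as the difference between them. limma was fitted over all genes on log2(FPKM + 0.5) after the background of each library was subtracted and libraries were scaled, with Benjamini-Hochberg adjustment, two-sided, at 0.05. A gene needed a mean of 1 or more and 3 libraries at 1 or more, which left 14765 genes. Of the 70 genes, 48 were tested (5 of 6 H1, 18 of 20 H2A, 12 of 19 H2B, 1 of 12 H3 and 12 of 13 H4), and the other 22 were too low. A gene could pass through the group in which it is high, so counts over these 48 do not stand for all 70.

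In females, 1 of the 48 genes tested passed, Hist3h2ba, an H2B gene, which fell in the cKO. Over all genes 0.0474% fell, 0.0271% rose and 0.0745% changed in either direction. Hist3h2ba (chr11:58948920-58949533, plus strand) had 0.861, 1.64 and 2.30 FPKM as deposited in the cKO females and 2.88, 2.21 and 2.66 in the control females. It had 2.51, 2.51 and 2.63 in the cKO males and 2.37, 1.99 and 2.54 in the control males. As deposited, cKO female 3 overlapped the control females. The value of cKO female 2 lay below the receptor median of its own library, that of cKO female 3 just above it, and that of cKO female 1 above the 95th percentile of 0.792. After subtraction and scaling the gene had 0.507, 0 and 0.0863 in the cKO females and 2.37, 1.83 and 2.00 in the control females, with no overlap. The log2 change was −1.94 (SE 0.255, limma, adjusted p = 0.0278). It was −3.27 with a pseudocount of 0.1, where the call was lost (adjusted p = 0.0930), and −1.38 with a pseudocount of 1 (adjusted p = 0.0203). The call rested on the subtraction, since without it the change was −0.39 (adjusted p = 0.281), and with the log2 background as a covariate it was −0.64 (adjusted p = 0.402). It was also lost when any 1 library other than cKO female 1 was left out (11 of 12, adjusted p 0.0558 to 0.147), and without cKO female 1 the change was −2.24 (adjusted p = 4.4e-05).

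**Figure D3:**
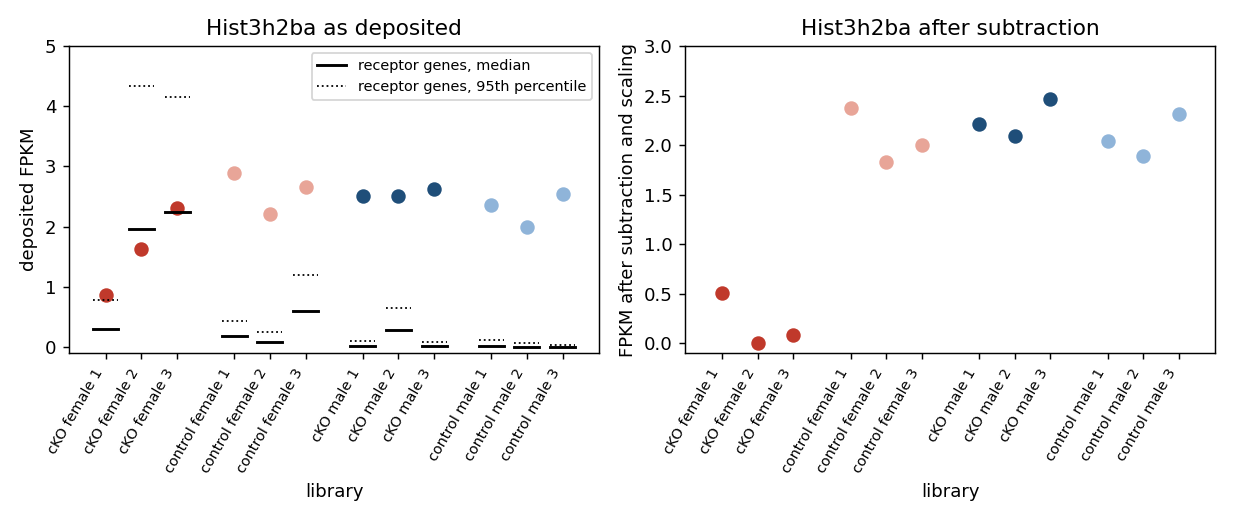
Hist3h2ba in each library as deposited (left, with the median and the 95th percentile of the receptor genes of the same library as solid and dotted lines) and after background subtraction and scaling (right). The cKO female values of 0.861, 1.64 and 2.30 FPKM lie near the receptor genes of their own libraries, while in the other 9 libraries the gene lies above both lines.

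The other members of the Hist3 cluster did not pass or were not tested. Hist3h2a had a log2 change of 0.45 in females (adjusted p = 0.311), and the pseudogene Hist3h2bb-ps, at 0.918, 1.10 and 1.47 FPKM in cKO females and 1.33, 0.963 and 1.62 in control females, was too low to be tested. Hist4h4 was also too low, at 1.205, 2.39 and 2.03 FPKM in cKO females and 1.34, 0.844 and 1.32 in control females.

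The remaining 47 genes did not pass in females. Of the 48, 20 had a positive and 28 a negative change, with a median log2 change of −0.12 against −0.0002 over all genes tested, and 16 had an unadjusted p under 0.05, a share of 33.3% beside 28.3% of all genes. The H4 genes had 2 positive and 10 negative changes with a median of −0.37, and the H2A genes 11 and 7 with a median of 0.09. Hist1h2ae (0.70, adjusted p = 0.118), Hist1h2ac (0.77, adjusted p = 0.128), Hist1h1d (0.76) and Hist2h2be (0.47) were positive. Hist1h2an (−1.30, adjusted p = 0.118), Hist1h2bl (−1.52, adjusted p = 0.118), Hist1h4j (−1.25, adjusted p = 0.118) and Hist2h2aa1 (−2.40, adjusted p = 0.126) were negative. After subtraction 9 of the 48 were at 0 in cKO female 2 and 7 in cKO female 3, and none in the other 10 libraries, and the folds of genes at 0 depend on the pseudocount. Without cKO female 1, 18 of the 48 genes passed and 5558 of all genes, and without any 1 of the other 11 libraries none of the 48 passed. The direction was not stable under other settings: without subtraction 43 of 55 genes tested were positive, with quantile normalization 10 of 48 and without scaling 4 of 48. As deposited, 3 of the 48 genes lay wholly higher in the cKO females, with no overlap with control females (10.7% of all genes), and 4 wholly lower (8%). After subtraction these were 4 of 48 higher (9.61%) and 6 of 48 lower (7.84%).

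In males, none of the 48 passed by limma, none had an unadjusted p under 0.05, and 1 gene of 14765 (0.00677%) was called in all. Atrx itself did not pass in males at −0.47, so the male test can miss a change of this size. In females Atrx passed at −0.87 (limma, adjusted p = 0.0200). The changes were balanced, with 25 positive and 23 negative and a median of 0.01 against 0.03 over all genes. The 4 smallest p belonged to Hist1h1a (log2 0.29, SE 0.157), Hist1h1e (−0.24, SE 0.147), Hist1h2ap (−0.25, SE 0.173) and Hist3h2a (0.39, SE 0.283), each with an adjusted p of 1. With 1 library left out, the change of Hist3h2a ran from 0.01 to 0.60. Hist1h4d had 0.08 (SE 0.212). For Hist3h2ba the change in males was 0.10 (SE 0.255). As deposited, 0 of the 48 genes lay wholly higher in cKO than in control males (6.96% of all genes) and 2 wholly lower (2.95%). After subtraction these were 0 of 48 higher (7.3%) and 1 of 48 lower (4.84%).

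**Figure D4:**
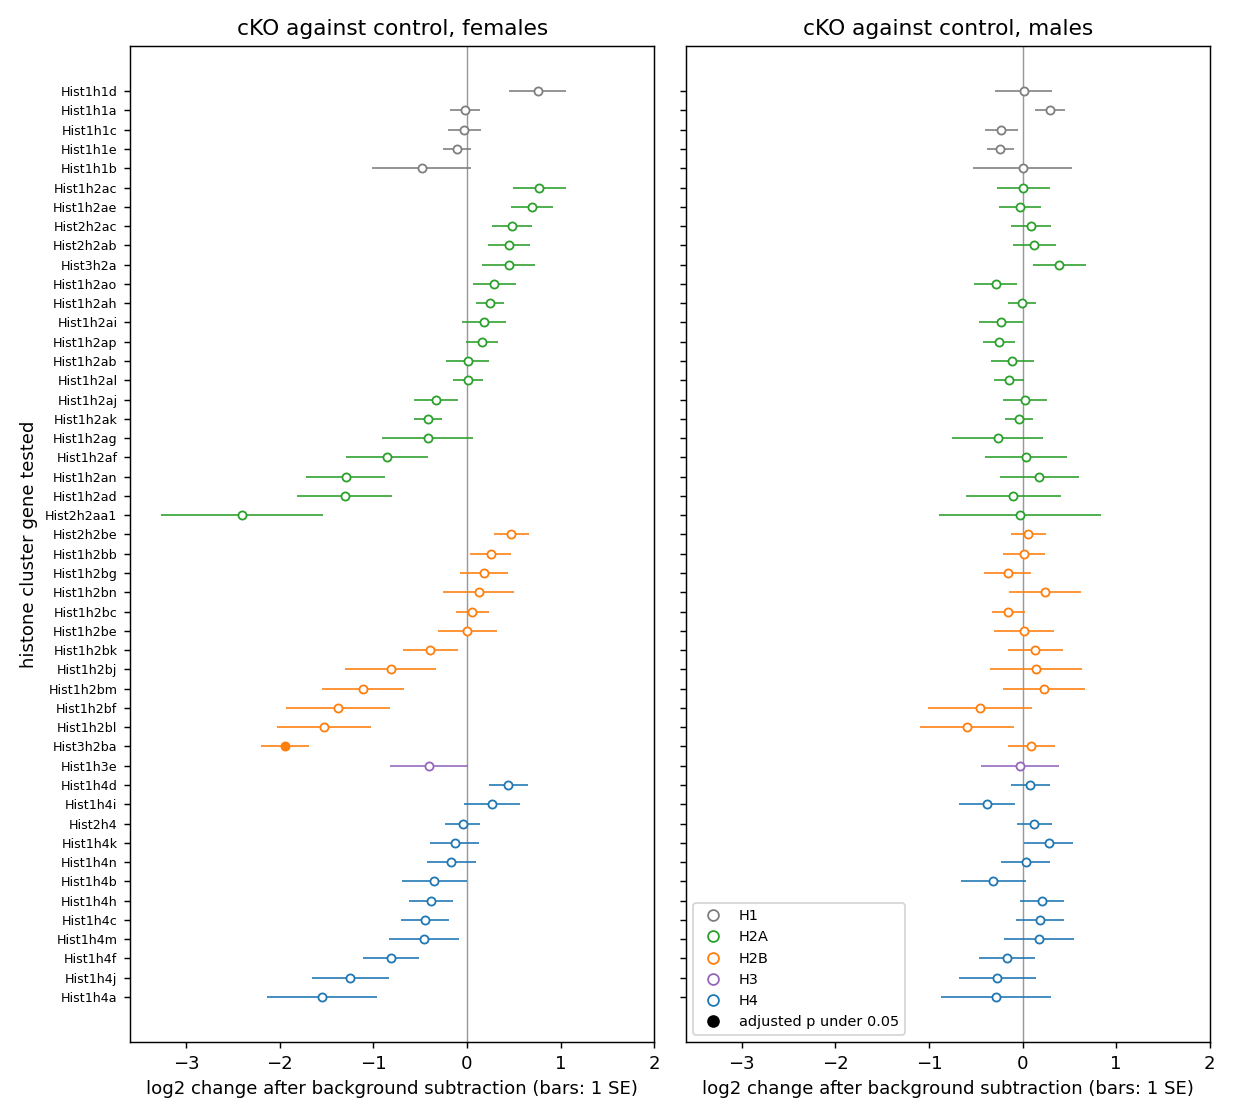
Log2 change of the 48 tested histone cluster genes in cKO against control after background subtraction, in females (left) and males (right), ordered by class, with bars of 1 SE. The filled point is the 1 gene with an adjusted p under 0.05, Hist3h2ba in females at −1.94, and the male changes lie between −0.60 and 0.39.

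For the mean of the sexes, none of the 48 passed, 6 had an unadjusted p under 0.05 (19.5% of all genes), and 0.0339% of all genes were called (0.0135% higher and 0.0203% lower). Hist3h2ba had −0.92 (adjusted p = 0.212). The difference of the effects, male minus female, passed for none of the 48 and for none of all genes (0%), with 3 of the 48 and 916 of 14765 genes at an unadjusted p under 0.05. It was 2.04 for Hist3h2ba (SE 0.360, adjusted p = 0.425). A stronger effect in females than in males was thus not shown for any of them. On scaled FPKM without subtraction, 67 of the 70 genes were tested among 43399. None passed in females (0% of all genes), males (0%), their mean (0%) or their difference (0%), while 19, 3, 18 and 4 of the 67 had an unadjusted p under 0.05, beside 41.9%, 2.18%, 37.3% and 3.71% of all genes. The median of the 67 was −0.51 in females and −0.18 in males, where that of all genes was 0.34 and 0.11. Without scaling it was 0.11 and 0.04, where that of all genes was 0.88 and 0.20. In that setting 4 of the 67 passed in females, 3 higher and 1 lower, beside 10452 of 43399 genes in all. The sign of the members' median thus turned with the scaling.

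The sexes were compared within the controls, where no knockout is involved. Of the 48 genes, 6 were higher in control males and none lower. Over all genes, 6.82% were higher and 12.3% were called in either direction. Of the 48, 13 had an unadjusted p under 0.05, beside 27% of all genes. The linker histone gene Hist1h1a had 7.53, 6.004 and 6.39 FPKM as deposited in the control males, against 4.73, 3.70 and 3.72 in the control females. The groups did not overlap, and the log2 difference after subtraction was 0.76 (SE 0.157, limma, adjusted p = 0.0134). All windows of Hist1h1a were its own.

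The other genes that passed were H2A or H2B genes. For Hist1h2bc, whose values are given above, the log2 difference was 0.77 (adjusted p = 0.0195). Hist2h2ac had 23.4, 17.5 and 21.7 FPKM in the control males, against 15.4, 10.4 and 11.4 in the control females (0.78, adjusted p = 0.0364). Its close neighbour Hist2h2ab had 17.8, 11.7 and 12.1 in the control males, against 10.8, 5.91 and 8.13 in the control females (0.78, adjusted p = 0.0497). Hist1h2ah (0.55, adjusted p = 0.0375) and Hist1h2ap (0.65, adjusted p = 0.0344) share most of their sequence with other H2A genes, with 7.87% and 6.93% of windows of their own. Hist2h2be, the divergent partner of Hist2h2ac, had 3.00, 2.37 and 2.82 in the control males, against 2.75, 2.42 and 2.62 in the control females and did not pass (0.21).

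Most of the set had a positive difference. A total of 47 of the 48 changes were positive, and the median was 0.47 against −0.05 over all genes tested, of which 44.6% were positive. Hist3h2a was the exception at −0.23, and with 1 library left out it ran from −0.44 to 0.15. Among the genes tested, the class medians were positive, at 0.36 in H1, 0.60 in H2A, 0.31 in H2B and 0.60 in H4. Only 1 of 12 H3 genes was tested, at 0.21, so this says little of the H3 class. As deposited, all 12 H3 genes summed to 7.42, 8.20 and 9.18 FPKM in control males and 9.99, 8.81 and 9.95 in control females. The calls were less stable than the direction. None of the 48 passed without control female 3 or without control male 3, and 10 passed without cKO female 2. None passed with the log2 background as a covariate, without scaling, with quantile normalization or without the filter. Calls over all genes moved too, from 1810 to 14, 15, 967 and 721 in these last settings. The counts with 1 library left out are given without the share of all genes, so they describe only how the calls moved. Across the 24 settings tried, between 78.2% and 97.9% of the genes tested were positive. Among the 10 tested genes with at least 80% of windows of their own, 10 were positive, with a median of 0.28, and 1 of them passed. As deposited, 20 of the 48 genes lay wholly higher in control males, beside 14.8% of all genes, and 0 wholly lower, beside 34.8%. After subtraction 29 of 48 lay wholly higher, beside 21.6%, and 0 wholly lower, beside 26.3%. Of all 70 genes, 21 lay wholly higher as deposited and 6 wholly lower, the 6 being too low to be tested. After subtraction these were 30 and 1. The shares given here cover tested genes only. On scaled FPKM without subtraction, 64 of 67 were positive, beside 35.2% of all genes, and 47 of 67 were when scaling too was left out. An unadjusted p under 0.05 was found for 41, beside 31.8% of all genes, and none passed by limma, while 0.18% of all genes did (0.136% higher and 0.0438% lower).

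Other values moved with sex in the same libraries. Protein-coding genes outside the clusters with exons of under 1000 bases in all had a median log2 difference of 0.44, with 73.4% of 256 positive, against −0.08 for 7973 genes of over 3000 bases. The background was 0.00664 to 0.0276 in control males and 0.0863 to 0.602 in control females. The 5 astrocyte markers summed to 558 to 628 FPKM in control males and 361 to 403 in control females, and 3 of them passed as higher (Aldoc, Gfap and Aqp4). The 5 oligodendrocyte markers summed to 816 to 904 in control males and 399 to 571 in control females, and 1 of them, Mbp, passed. The neuronal markers Wfs1 and Prox1 were lower in control males (−0.88 and −0.57). The part of gene length, background or cell makeup in the histone difference was not tested.

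**Figure D5:**
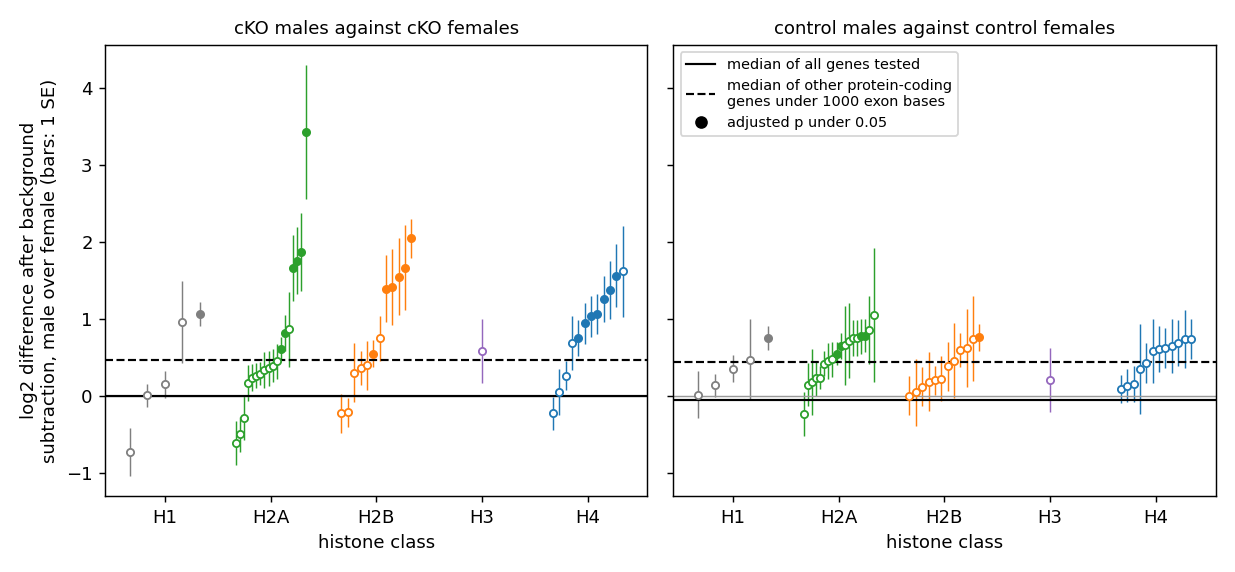
Log2 difference, male over female, of the 48 tested histone cluster genes after background subtraction, by class, in cKO mice (left) and control mice (right), with bars of 1 SE and filled points for an adjusted p under 0.05. In controls 47 of 48 points lie above 0, and the dashed line marks the median of other short protein-coding genes, 0.47 in cKO and 0.44 in control mice.

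Within the cKO, a comparison added after the data were seen, 20 of the 48 genes were higher in males than in females and none lower, beside 16.9% of all genes higher and 36.4% called in either direction. A total of 41 of 48 were positive, with a median of 0.60 against 0.00 over all genes. Of the 48, 23 had an unadjusted p under 0.05, beside 49% of all genes. The background of these groups differed more, at 0.0178 to 0.286 in cKO males and 0.305 to 2.25 in cKO females, and short genes outside the clusters had a median of 0.47. Hist1h1a, at 10.2, 6.73 and 8.14 FPKM in cKO males and 4.54, 4.16 and 4.07 in cKO females, passed here too (1.07, adjusted p = 0.00340). Hist3h2ba passed at 2.05 (adjusted p = 0.00284), through the same cKO female libraries as above. These counts turned on the subtraction and on single libraries. For the changed settings of this fit the share of all genes called is not given, so the counts describe only how the calls moved. Without subtraction 11 of 55 genes were higher and 8 lower, with a median of 0.04, and with the log2 background as a covariate none of 55 passed. Without cKO females 2 and 3, which left 1 library in that group, the median was 0.46. The count was 3 without cKO male 3, 5 without cKO male 1, 10 without cKO female 2 and 12 without cKO female 3. Without scaling 31 of 48 were higher, and with quantile normalization 30. As deposited, 19 of the 48 genes lay wholly higher in cKO males (15.7% of all genes) and 2 wholly lower (27.6%). After subtraction these were 17 of 48 (19.7%) and 0 of 48 (21.5%). Of all 70 genes, 19 lay wholly higher as deposited and 12 wholly lower, and after subtraction 22 and 0. The shares cover tested genes only. On scaled FPKM without subtraction 48 of 67 were higher and 1 lower, beside 22.3% of all genes higher, 44.9% lower and 67.2% called.

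Genes that make, end, carry or replace these histones were followed as lists. In cKO against control, none of the tested genes of these lists passed in females, in males or in the mean. In females these were 10 replacement variants, 15 genes of histone message 3′ processing and transcription, 6 histone chaperones and 6 genes of S phase, with 1, 2, 2 and 3 at an unadjusted p under 0.05, beside 28.3% of all genes. Their medians were −0.09, 0.00, −0.03 and 0.14, beside −0.0002 over all genes. In males none of them had an unadjusted p under 0.05, beside 2.4% of all genes, and their medians were 0.02, −0.04, 0.01 and 0.11.

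Slbp, which encodes the stem-loop binding protein, had 15.4, 23.0 and 21.2 FPKM in cKO females and 13.1, 13.1 and 17.2 in control females, with a log2 change of 0.29 after subtraction (adjusted p = 0.181). It had 13.8, 17.5 and 15.5 in cKO males and 14.1, 15.9 and 16.1 in control males (−0.04). Npat, the activator of histone transcription in S phase, averaged 7.36 FPKM in cKO females, 6.86 in control females, 6.09 in cKO males and 6.52 in control males. The U7 gene Rnu7 did not pass the 95th percentile of the receptor genes in any of the 12 libraries. In control males against control females Cpsf2, a subunit of the cleavage factor, and Upf1, which acts in decay of histone messages, were lower (−0.32 and −0.52, adjusted p = 0.0307 and 0.0452), beside 5.44% of all genes lower. None of the other 13 tested genes of that list passed.

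Of the replacement variants, H3f3a and H3f3b, both coding for H3.3, averaged 53.0 ± 50.1 and 34.8 ± 10.2 FPKM in cKO females and 58.8 ± 14.8 and 48.0 ± 6.17 in control females, and 149 ± 9.07 and 53.3 ± 0.762 in cKO males and 121 ± 20.5 and 52.6 ± 1.30 in control males (SD, n = 3 each). H3f3a was at 111 FPKM in cKO female 1 and at 22.1 and 26.3 in cKO females 2 and 3. Each of these genes was thus far above every H3 gene of the clusters, the highest of which averaged 2.10 FPKM. H2afz, the H2A.Z gene, averaged 10.9 FPKM in cKO females, 14.4 in control females, 16.8 in cKO males and 18.9 in control males. No replacement variant passed between control males and control females, with 6 of 10 positive and a median of 0.09. Within the cKO, 4 of the 10 were higher in males and 1 lower, with a median of 0.43. Over all genes, 16.9% were higher there and 19.5% lower. The linker variant H1f0 averaged 23.3 FPKM in cKO females, 29.5 in control females, 29.0 in cKO males and 29.5 in control males.

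The S phase list summed to 65.0, 120 and 126 FPKM in the 3 cKO females and 51.7 to 60.8 in control females, and to 42.9 to 60.04 in cKO males and 40.7 to 47.2 in control males. Of its 20 genes, 14 were too low to be tested after subtraction. Pcna, the sliding clamp of DNA polymerase, was the highest, at 14.9 ± 2.14 FPKM in cKO females and 14.1 ± 3.71 in control females, and 19.6 ± 0.622 in cKO males and 17.9 ± 3.64 in control males (SD, n = 3 each). Mki67, a marker of cycling cells, had 1.73, 6.73 and 7.16 FPKM in the cKO females and 1.79, 0.745 and 2.12 in the control females. Top2a, another such marker, had 4.23, 9.16 and 9.89 in the cKO females and 3.16, 1.92 and 4.58 in the control females. Both were high in cKO females 2 and 3, the libraries with backgrounds of 1.97 and 2.25, and cKO female 1 lay within the range of the control females. In males Mki67 was at most 1.58 and Top2a at most 3.43.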

How the data were processed

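Hippocampal RNA of 12 libraries was measured by sequencing. Per the submitters' processing notes, the authors used HISAT2 2.0.4, StringTie and GRCm38.p6. The sources used here do not give the trimming, the strand setting or the annotation release. The deposited tables hold FPKM and coverage (read signal) by transcript, as the authors' StringTie output per the file headers. FPKM was summed per gene, and the ratio of FPKM to coverage, constant within a library, gave the mapped bases.

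The members and lists were chosen with earlier results of these data known. The background, the median FPKM per exon base of 1459 receptor genes, was subtracted with a floor at 0, and libraries were scaled by the median of ratios. limma 3.58.1 (R 4.3.3; trend, robust) was fitted on log2(value + 0.5) with 4 group means. Genes needed a mean of at least 1 and at least 1 in 3 libraries. A second fit used scaled FPKM without subtraction, with at least 0.5 in 3 libraries. Named genes were those past 0.05, the 12 highest, the 4 of smallest p in each direction of a comparison, the Hist3 and Hist4 genes, and up to 4 of each list. Slbp, Npat, Rnu7, Mki67, Top2a and genes named by level or sharing were added for their role after values were seen. The scripts were tested on simulated data. Gene models were GENCODE M21, which matched 54495 genes.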

Additional observations from a re-analysis of the deposited data

How the results depend on the processing

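Of the results that answer a comparison, 216 settings left the value close to its main value and 119 moved it. No value past the threshold changed sign, while 28 of the 63 log2 changes followed for named genes, none of them past the threshold, had the opposite sign in at least 1 setting. Called genes numbered 11 in females, against 5 without subtraction, 4 with background as a covariate, 4 without scaling, 17 with quantile normalization, 30 without a filter, 17 with a filter at 0.5 and 0 with the replicate block. With 1 library left out they numbered 1 to 5558. Of the histone genes 1 was called in females, and 0 without subtraction, with the covariate, with a pseudocount of 0.1 or with the block, and 0 to 18 with 1 library left out. In males 1 gene was called, against 3 without subtraction, 3 with the covariate, and 0 without scaling, with quantile normalization or with the block (1 to 2 with 1 library left out). The mean of the sexes gave 5, against 10 without subtraction and 0 without scaling or with the block (3 to 4207, histone genes 0 to 11). The difference gave 0 (0 to 2944, histone genes 0 to 9). Control males against control females gave 1810, against 14 with the covariate, 15 without scaling, 967 with quantile normalization, 721 without a filter and 3374 without cKO females 2 and 3 (558 to 2775). The histone genes called were 6, against 0 with the covariate, without scaling, with quantile normalization or without a filter, 13 without cKO females 2 and 3, and 0 to 10 with 1 library left out. In cKO males against cKO females they were 20.

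On scaled FPKM without subtraction, females gave 0, against 10452 without scaling and 3 with the block (0 to 25098). Males gave 0 to 1 with 1 library left out. The mean gave 5 without scaling (0 to 23636), and the difference 0 to 3426. Control males against control females gave 78, against 10 without a filter, 2931 with a pseudocount of 0.1 and 341 without scaling (9 to 6757). The summed FPKM of the histone genes in cKO females was 422.3, against 414.0 after subtraction, 393.3 for single-exon transcripts and 241.0 with scaling. In control females it was 448.8, against 383.6, 416.7 and 406.2. In cKO males it was 568.9, against 512.5 after subtraction and 698.9 with scaling. In control males it was 569.3, against 512.8, 518.9 and 812.9. The cause of these changes was not tested.

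Same-numbered cKO and control libraries did not deviate together (r = 0.13, −0.28 and 0.35 in females, 0.05, −0.10 and 0.19 in males), so the data do not show that the numbers pair them. Whether they mark the pairs named in the series design is not stated. With the replicate block Hist3h2ba had an adjusted p of 0.135. Low depth and high background in cKO females 2 and 3 limit what can be seen there of members under about the receptor percentile. Where 1 library was left out, the remaining ones were assumed to vary as in the other groups.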
